A study of Rattus norvegicus with 2 samples.

Results

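The regions described here are the very long H3K27ac peaks of the rat sciatic nerve, defined as peaks of 10 kb or more on the numbered chromosomes. They were chosen by length alone, the end minus the start in the deposited list, and there were 580 of them among 32205 autosomal peaks (32996 with X). The assay was chromatin immunoprecipitation followed by sequencing (ChIP-seq), and the nerves came from rats of the Sprague Dawley strain killed on postnatal day 15 and were pooled. The series has 1 H3K27ac library and 1 input library, from which 1 list of peaks was deposited. Both libraries share strain, tissue and age, and no other treatment or genotype is labelled. The nerve is a mixed tissue of Schwann cells, fibroblasts, vessels, immune cells and axons, so a long peak may come from any of these cells or from several of them.

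Acetylation of lysine 27 on histone H3 is placed by the acetyltransferases p300 and CBP and marks active promoters and active enhancers. Most active elements are marked over a few nucleosomes on either side of a nucleosome-depleted centre. In some places the mark runs without a break over many kilobases, and such stretches are often discussed with super-enhancers, groups of enhancers dense in transcription factors and Mediator that tend to lie near genes of cell identity. Schwann cells at this age are wrapping axons in myelin, a programme driven by transcription factors such as SOX10 and EGR2. No gene or sequence was assigned to the peaks, since the gene table at hand was of another build.

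Very long peaks were 1.8% of autosomal peaks (exact 95% interval 1.66 to 1.95%) and held 12.3% of the length covered by autosomal peaks, 8.91 of 72.5 Mb. Their lengths ran from 10012 to 68994 bp, with a median of 13035 bp and quartiles at 11287 and 16362 bp. The other 31625 autosomal peaks had a median of 1484 bp, so the typical very long peak was 8.78 times as long. These lengths are what defined the members and are given as a description.

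Fewer members were found at greater lengths. Between 10 and 15 kb there were 390 members, 67.2% of them. A further 105 were from 15 to 20 kb, 57 from 20 to 30 kb, 18 from 30 to 40 kb, and 10 were longer. The 85 peaks of 20 kb or more were thus a small tail of the set. The limit itself fell in no gap of the distribution: 62 peaks were between 9.5 and 10 kb and 56 between 10 and 10.5 kb. The shortest member, on chromosome 5 from 176651308 to 176661319, was 10012 bp long, and the longest peak left out, on chromosome 17 from 623253 to 633243, was 9991 bp long.

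**Figure D1:**
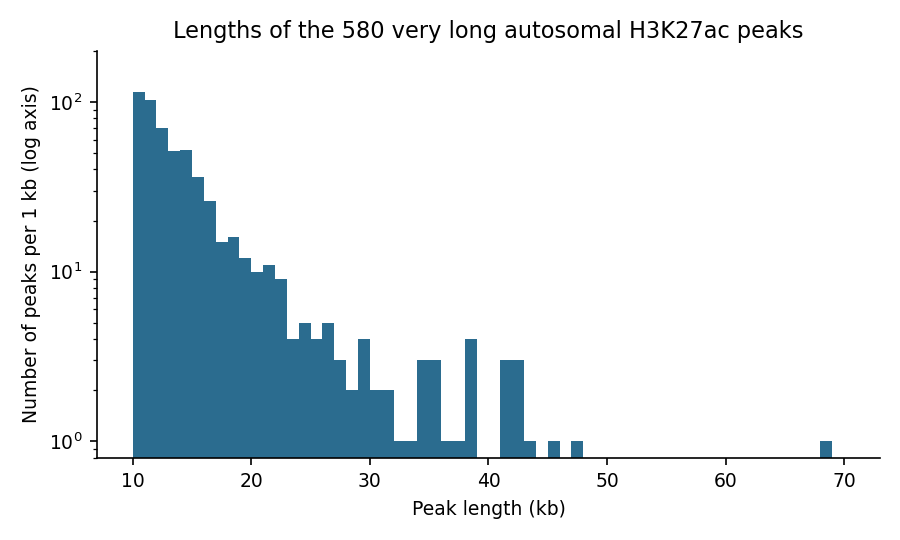
Number of very long autosomal peaks (vertical log axis) by length in kb (horizontal axis, 1 kb bins). Counts are highest just above the 10 kb limit and lower at greater lengths, though not at every step. A single peak of 68994 bp stands beyond the rest.

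The 10 longest peaks differed in their surroundings. The longest, on chromosome 6 from 59203493 to 59272486, was flanked by short peaks of 690 and 837 bp, and its left neighbour was 72686 bp away. The peak of 47839 bp on chromosome 3 (11885522 to 11933360) had close neighbours on both sides, at 959 and 1300 bp. The peak of 45962 bp on chromosome 14 (3645037 to 3690998) lay 592 bp from another very long peak, of 26576 bp. The settings of these 3 peaks went from near isolation on one side to a run of long peaks.

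The next in rank, 43285 bp on chromosome 9 (80967916 to 81011200), had its nearest neighbour at 6991 bp and belonged to a group of 9 peaks. Chromosome 1 held a pair of peaks of nearly equal length in unlike settings. One of 42579 bp (285164838 to 285207416) had a peak of 5400 bp at 2555 bp. The other, of 42562 bp (22421752 to 22464313), stood alone, with 18748 bp to the nearest peak. It was the only one of the 10 without a peak within the stitching distance, the gap of about 13 kb (exact value with the processing) up to which neighbouring peaks are here joined into a domain, as is customary for enhancers.

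The other 4 of the 10 longest were on chromosomes 12, 7, 5 and 20. The peak on chromosome 12 (48599687 to 48641992) had a neighbour of 5427 bp at 585 bp, and the peak on chromosome 5 (159566617 to 159607708) had a neighbour of 7789 bp at 636 bp. The peak on chromosome 7 (120414584 to 120455803) lay 2417 bp from a further very long peak of 29454 bp. The peak on chromosome 20 (9779391 to 9820390) had its nearest neighbour, of 1962 bp, at 6732 bp. Among the 10, 6 had a peak within the stitching distance on both sides. For 3, the next peak on a side was itself very long, at 592, 2417 and 52982 bp.

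Very long peaks had other peaks close by more often than the rest of the list did. The gap to the nearest peak, measured from edge to edge so that the peak's own length is not part of it, had a median of 2139.5 bp for very long peaks (quartiles 879.5 and 5370 bp). For all other autosomal peaks it was 7288 bp (2399 and 21511 bp). A neighbour within the stitching distance was present for 90.2% of very long peaks (523 of 580, exact 95% interval 87.5 to 92.5%) and for 63.2% of the others (62.7 to 63.8%). Peaks of 5 to 10 kb, the class just below, stood between them with 82.7% (81.1 to 84.3%) and a median gap of 3138 bp. With 1 library there is no spread between replicates to set these differences against, and peaks of 1 list are not replicates, so no p-value is given here or below. The intervals treat peaks as independent, although neighbouring peaks share a gap.

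The difference rested on measuring from the edges. From centre to centre, the median distance was 11817 bp for very long peaks and 9658 bp for the others, and the share with a neighbour within the stitching distance was 54.8 against 58.5%. By construction, a centre-to-centre distance includes part of the length of both peaks. How the peak caller joined or separated nearby signal is not given in the sources used here, and its part in either the lengths or the gaps was not tested.

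The shares differed in the same direction at other distances. A neighbour within 1 kb was found for 30.2% of very long peaks, 20.7% of peaks of 5 to 10 kb and 11.2% of all others. No gap in the list was under 500 bp. Within 25 kb the shares were 96.9, 92.7 and 78.1%. Neighbours were present on both sides within the stitching distance for 51.4% of very long peaks (exact 95% interval 47.2 to 55.5%), for 40.6% of peaks of 5 to 10 kb (38.6 to 42.7%) and for 22.7% of all others (22.2 to 23.2%). The nearest gap was on the left for 305 members and on the right for 275. The farther of the 2 gaps had a median of 11981 bp for very long peaks, 17025 bp for peaks of 5 to 10 kb and 35788 bp for all others.

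From 1 kb upward, the share with a neighbour was higher in each longer class up to the limit, and it was level among the members. It was 58.4% for peaks of exactly 500 bp, 56.97% for those above 500 bp and below 1 kb, 60.2% from 1 to 2.5 kb, 71.9% from 2.5 to 5 kb and 82.7% from 5 to 10 kb. Among the members it was 90.3% from 10 to 15 kb (exact 95% interval 86.9 to 93.0%), 89.5% from 15 to 20 kb (82.0 to 94.7%) and 90.6% at 20 kb or more (82.3 to 95.8%). The 3 member classes lay within each other's intervals.

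**Figure D2:**
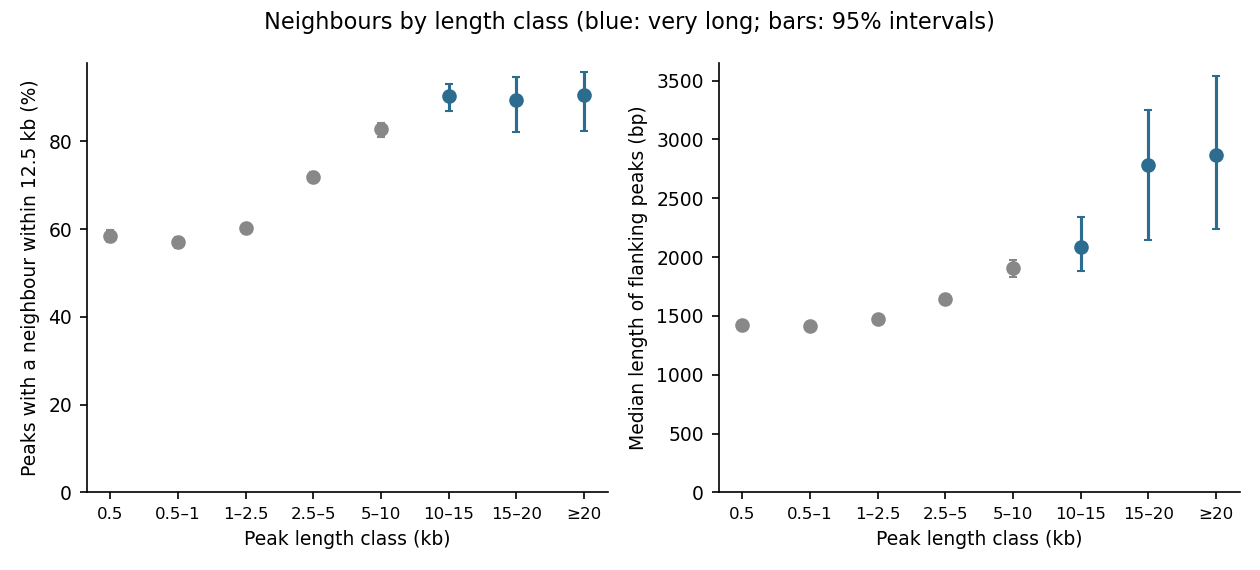
Share of peaks with another peak within the stitching distance of about 13 kb (left, percent, exact 95% intervals) and median length of the flanking peaks (right, bp, order-statistic 95% intervals) by length class in kb. The share is level near 90% in the 3 classes of very long peaks (blue), while the medians of the flanking peaks are higher in the upper 2 of them, with overlapping intervals.

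The direction was the same on every autosome. The median nearest gap of very long peaks was lower than that of the others on 20 of 20 chromosomes. It was lowest on chromosome 19, at 887 bp, and highest on chromosome 11, at 4522.5 bp, while that of the others ran from 5563 to 9819 bp, so the ranges did not overlap. The share with a neighbour within the stitching distance was also higher for very long peaks on all 20, from 73.7% on chromosome 4 to 100% on chromosomes 13 and 20.

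Remote members were rare. The farthest of all, on chromosome 14 from 35402800 to 35417148 (14349 bp), had 93.4 kb to its nearest peak. It was followed by a peak on the same chromosome (44972702 to 44984293, 11592 bp) with 64.2 kb. Peaks on chromosome 3 (41764409 to 41774847, 10439 bp) and chromosome 5 (122271020 to 122281577, 10558 bp) had 63.3 and 63.1 kb. The last of the 5 was on chromosome 4 (216046662 to 216057712, 11051 bp) with 54.4 kb. These 5 were all under 15 kb long, as were 67.2% of all members. They were 0.862% of the members and the only ones with no peak within 50 kb. Of peaks of 5 to 10 kb, 2.41% were that far from any peak, and of all other peaks 10.7%. No member was over 100 kb from the nearest peak, and 0 of 580 allows a share of up to 0.517% if a count of 0 is taken to allow 3 counts. In the class of 5 to 10 kb 15 peaks (0.681%) were that remote, and among all other peaks 1491 (4.71%).

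The peaks next to a very long peak tended to be longer than those next to other peaks. Of them, 25.1% reached 5 kb, against 17.5% beside peaks of 5 to 10 kb and 8.35% beside all other peaks. The immediate neighbours on either side, at any distance, had a median length of 2292.5 bp (95% interval 2084 to 2521 bp), against 1903 bp (1832 to 1974 bp) beside peaks of 5 to 10 kb and 1506 bp (1493 to 1519 bp) beside all other peaks. With very long neighbours left out throughout, the medians were 1994 bp, 1799 bp beside peaks of 5 to 10 kb and 1477 bp beside all other peaks. Flanking peaks were longer beside very long peaks on 19 of 20 chromosomes. The exception was chromosome 6, with 1254.5 bp beside its 25 members and 1492 bp beside the other peaks. Peaks of exactly 500 bp were 12.2% of the neighbours of very long peaks, 14.3% of those of peaks of 5 to 10 kb and 17.2% of those of all others. The autosomal list held only 1 peak below that length (426 bp).

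Within the set, the median length of the neighbours was higher beside the longer members. It was 2087.5 bp beside members of 10 to 15 kb (95% interval 1882 to 2344 bp), 2786 bp beside those of 15 to 20 kb (2143 to 3247 bp) and 2863 bp beside those of 20 kb or more (2235 to 3541 bp). The intervals of all 3 classes overlap. Another very long peak took 5.77% of the flanking positions in the shortest of these classes, 9.05% in the middle and 15.3% in the longest, or 26 of 170.

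Very long peaks also followed one another directly. There were 45 pairs of very long peaks with no other peak between them, which took in 84 members, 14.5% of the set. A very long peak took 7.76% of the flanking positions of very long peaks and 4.56% of those of peaks of 5 to 10 kb. For all peaks below 10 kb together, that class included, it took 1.69%. In the list as a whole, 1.8% of peaks were very long. The gaps inside the pairs ran from 525 to 52982 bp with a median of 1749 bp, and 14 of them were under 1 kb. The closest pair lay on chromosome 19, where peaks of 15590 and 29733 bp were 525 bp apart (41735353 to 41781200). Next came a pair on chromosome 2 of 10994 and 12267 bp, with 550 bp between them (198102319 to 198126129).

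Whether such runs count as 1 region or several is set by the gap that is allowed. When peaks less than 1 kb apart were joined, 746 regions reached 10 kb. Of these, 405 were single peaks and 341 were made of several, and 183 contained no peak that was itself very long. The longest joined region spanned 99232 bp on chromosome 1 (274485816 to 274585047) in 5 peaks, longer than any single peak.

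Acetylated cover around very long peaks was raised over a wide range. From 5 to 10 kb outward of the edges, other peaks covered 29.8% of the sequence beside very long peaks, 21% beside peaks of 5 to 10 kb and 11.1% beside all other peaks. From 25 to 50 kb the values were 18.0, 13.8 and 8.89%. From 250 to 500 kb they were 6.08, 5.69 and 5.15%, while peaks covered 2.65% of the whole autosomal span. The ratio of very long to other peaks thus went from 2.68 through 2.03 to 1.18 with distance. Members of 20 kb or more had 37.1% cover at 5 to 10 kb and 6.12% at 250 to 500 kb. Cover was higher beside very long than beside other peaks on 20 of 20 chromosomes at 5 to 10 kb, on 19 at 25 to 50 kb and on 15 at 250 to 500 kb.

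**Figure D3:**
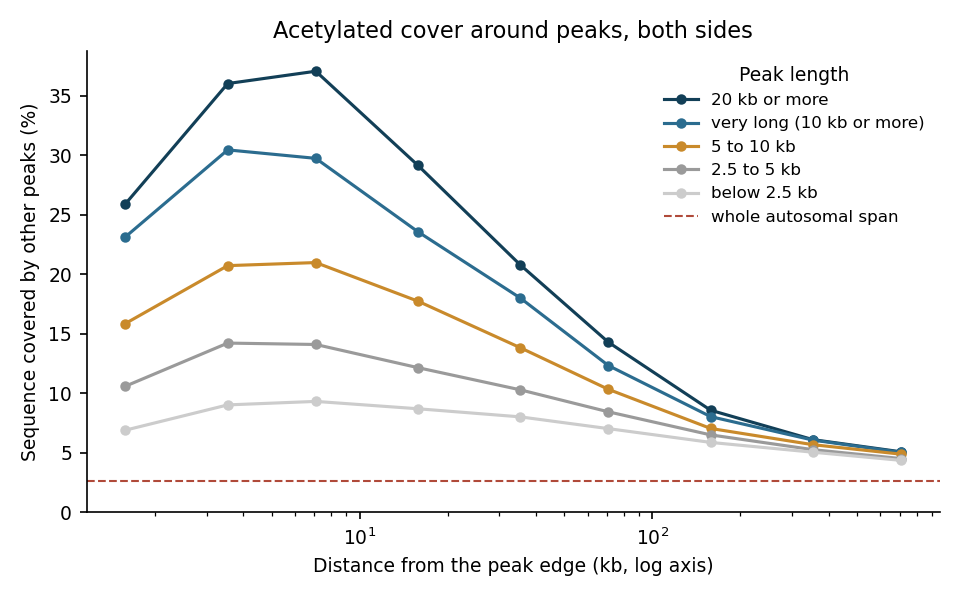
Share of sequence covered by other peaks (percent) against distance from the peak edge (kb, log axis), both sides together, for peaks grouped by length. The order of the lines follows peak length near the edge, with 37.1% beside peaks of 20 kb or more at 5 to 10 kb, and the lines draw together toward 500 kb. The dashed line is the share of the whole autosomal span.

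Counted as peaks, the surroundings showed the same order. Within 50 kb of either edge, very long peaks had a median of 6 other peaks, those of 5 to 10 kb had 5, and all other peaks had 3. Within 500 kb of either edge the medians were 32, 29 and 24. Every member had at least 2 other peaks within 500 kb.

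Very long peaks were most frequent where peaks of any length were dense. In windows of 1 Mb with 1 to 5 peaks, 0.172% of peaks were very long (3 of 1744, exact 95% interval 0.0355 to 0.502%). The share was 0.491% in windows with 6 to 10 peaks, 1.31% with 11 to 20, 1.77% with 21 to 30 and 2.82% with 31 or more (305 of 10813, 2.52 to 3.15%). The closeness to neighbours was present within each of 4 classes of windows by number of peaks too. These classes are wide, so density was not fully matched within them. In windows with 31 or more peaks, 95.4% of very long and 78.2% of other peaks had a neighbour within the stitching distance. In windows with 11 to 20 peaks the shares were 83.0 and 56.7%. In those with 1 to 10 peaks they were 64.7 and 35.0%, the former from 17 members, of which 14 lay in windows with 6 to 10 peaks.

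Joined within that distance, the autosomal peaks formed 18208 domains, and 497 of them (2.73%) held a very long peak. The typical domain with a member contained 4 peaks, and the most populous contained 18. Most such domains, 430, had 1 very long peak, 55 had 2, 8 had 3 and 4 had 4. Thus 150 members (25.9%) shared a domain with another. At the other end, 57 members (9.83%, exact 95% interval 7.5 to 13%) were the only peak of their domain. So were 17.3% of the peaks of 5 to 10 kb and 36.8% of all other peaks. Crowded domains of 8 or more peaks held 21.9% of the very long peaks, 15.4% of the peaks of 5 to 10 kb and 6.99% of all others.

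Inside domains, very long peaks took no fixed place. In domains of at least 3 peaks, 34.1% of the members (154 of 452) were the outermost peak on a side, as were 32.7% of the shorter peaks in the same domains (594 of 1817). In the 440 domains with a very long and at least 1 other peak, very long peaks held a median of 61.6% of the covered length (quartiles 47.0 and 79.1%), a share that their length raises by definition. The 1878 shorter peaks that shared a domain with a member had a median length of 2235 bp, and 19.9% of them were 5 kb or longer, against 6.97% of all autosomal peaks below the limit.

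The 4 domains with 4 very long peaks each were built differently. On chromosome 14 (3604281 to 3724672), members of 10834, 26576 and 45962 bp followed one another with gaps of 2754 and 592 bp, then 3 shorter peaks led to a last member of 10786 bp. On chromosome 19 (41673300 to 41781200), 3 short peaks were followed by an unbroken run of 4 members, of 16490, 17614, 15590 and 29733 bp. In that run the gaps were 2370, 595 and 525 bp, so nearly all of the right part of the domain was acetylated.

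On chromosome 17 (724094 to 860378), 6 short peaks came before members of 22320, 13887, 20524 and 21885 bp, which alternated with shorter peaks except for the middle pair. The smallest of the 4 domains, on chromosome 12 (13529074 to 13597467), spanned 68.4 kb and held members of 11919, 14893, 12444 and 12616 bp. Very long peaks made up 90.5% of the covered length in the domain on chromosome 14, 92.6% on 19, 79.9% on 17 and 94.3% on 12.

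**Figure D4:**
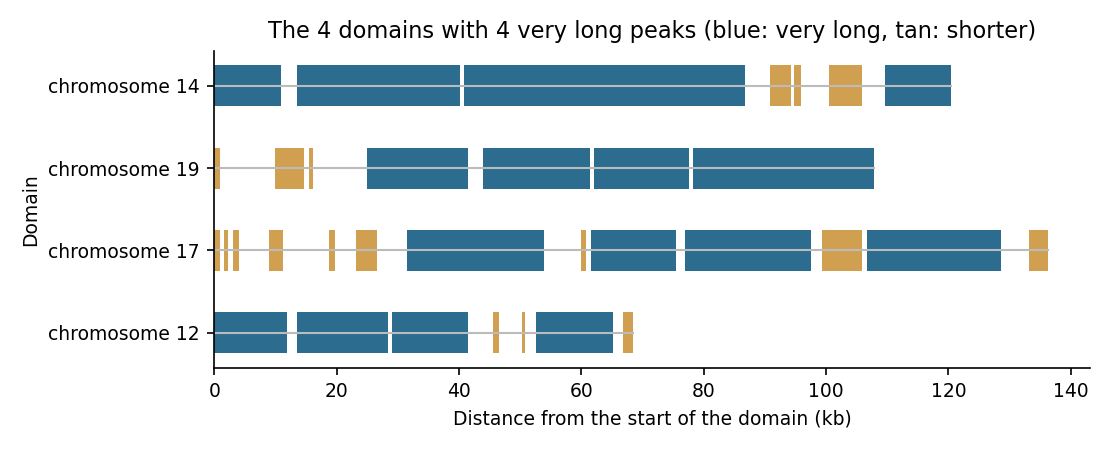
The 4 domains with 4 very long peaks, drawn to scale as distance from the start of the domain in kb; blue blocks are very long peaks and tan blocks shorter peaks. The run of 4 members on chromosome 19 is separated by gaps of 2370, 595 and 525 bp.

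Of 2751 windows of 1 Mb, those without any peak included, 376 (13.7%) contained a very long peak. The 129 windows with at least 2 held 57.4% of the members. Peaks of all lengths were unevenly spread as well: the 268 windows with 31 or more peaks held 10813 of the 32205 autosomal peaks and 305 of the 580 members. The window on chromosome 14 from 3 to 4 Mb had 7, more than any other. Windows on chromosome 7 (121 to 122 Mb), chromosome 3 (154 to 155 Mb) and chromosome 5 (175 to 176 Mb) had 5 each. From each member to the next on the same chromosome the median distance was 1.16 Mb, with quartiles at 117 kb and 4.42 Mb. The longest interval between members was 74.9 Mb on chromosome 4 (61673372 to 136543563), in which 124 shorter peaks lay. On chromosome 15 an interval of 48.4 Mb (60629227 to 109057478) held 233 shorter peaks and no member. A further interval on chromosome 4, of 42.9 Mb (136556181 to 179421760), held 315 shorter peaks. Only the member from 136543564 to 136556180 lay between it and the longest interval. Very long peaks were 1.01% of all peaks on chromosome 4 and 1.38% on chromosome 15, shares that count the peaks of these intervals too. Whether the intervals lacked members in particular was not tested. These windows and intervals were chosen after their values were seen.

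Chromosome 10 was the richest in very long peaks both per Mb and as a share of its peaks. It carried 74 of them, as many as the longer chromosome 1, or 0.662 per Mb of its span (exact 95% Poisson interval 0.520 to 0.831). Next were chromosome 12, at 0.427 (0.271 to 0.641), and chromosome 3, at 0.285 (0.213 to 0.373). Chromosome 4 was poorest, at 0.0766 per Mb (0.0461 to 0.120), before chromosome 11, at 0.0859 (0.0371 to 0.169), and chromosome 2, at 0.123 (0.0858 to 0.171). The intervals of chromosomes 10 and 12 overlapped, as did those of 12 and 3 and those of the lowest 3. Without peak-free stretches over 5 Mb, chromosome 11 took the lowest place, with 0.0924 per Mb. Chromosome 4, where such stretches made up 71.8 Mb of a span of 248 Mb, then had 0.108 per Mb.

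As a share of the chromosome's own peaks, very long peaks were 3.05% on chromosome 10 (exact 95% interval 2.40 to 3.81%), 2.56% on chromosome 13 (1.69 to 3.70%) and 2.17% on chromosome 3 (1.62 to 2.83%). The lowest shares were 0.826% on chromosome 11 (0.357 to 1.62%), 1.01% on chromosome 4 (0.607 to 1.57%) and 1.25% on chromosome 9 (0.727 to 1.99%). The 20 chromosomes averaged 1.73% ± 0.509 (SD over chromosomes, n = 20), and the intervals of 17 of them included the share of all autosomes together. Chromosome 10 lay above it, and chromosomes 4 and 11 lay below it. Without chromosome 10 the share over the other autosomes was 1.70%.

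Over the 20 chromosomes, the share of very long peaks went with the number of peaks per Mb (Spearman's rho 0.573, a description over chromosomes of 1 library). Chromosome 10 was highest in both, with 21.7 peaks per Mb. Of the chromosomes that departed from this order, chromosome 13 had the second highest share at 9.04 peaks per Mb, while chromosome 20, with 17.4 peaks per Mb, had a share of 1.50%. Among peaks of 5 kb or more, 29.96% were very long on chromosome 10, 13.9% on chromosome 4 and 14.5% on chromosome 11. Chromosomes 1 and 10 together held 148 members, 25.5% of the set and 18.6% of the other peaks.

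**Figure D5:**
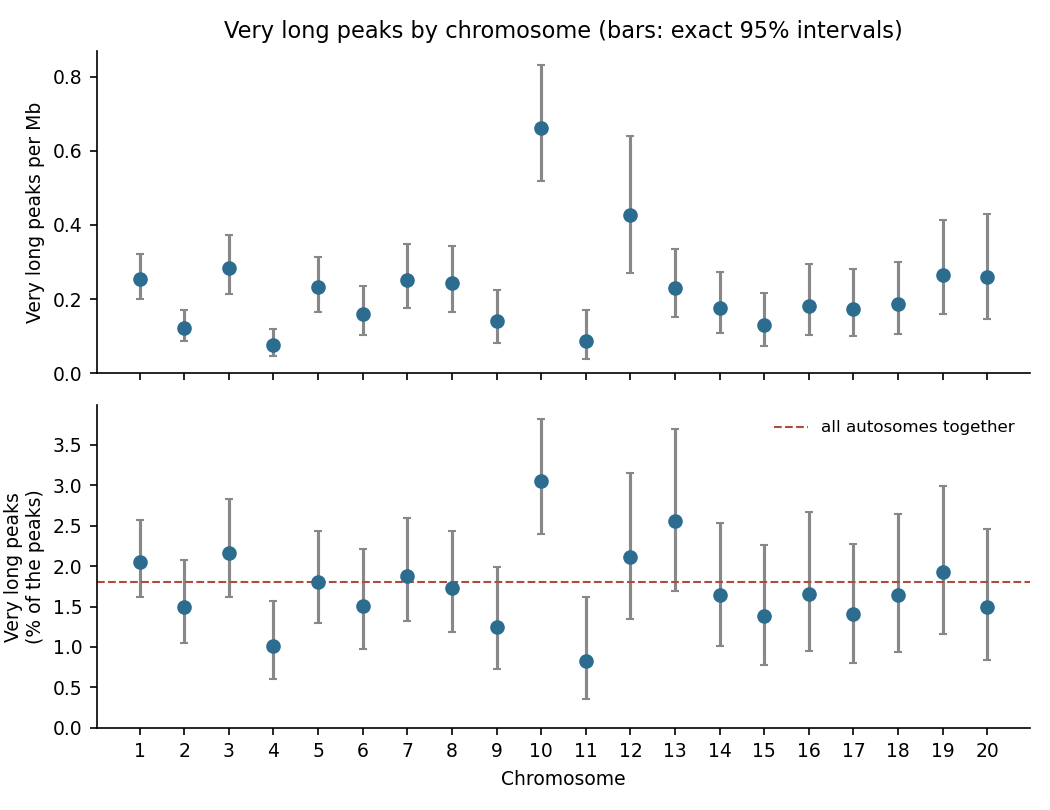
Very long peaks per Mb of chromosome span (top, exact 95% Poisson intervals) and as a percent of the chromosome's peaks (bottom, exact 95% binomial intervals) for the 20 autosomes. Chromosome 10 is highest in both, at 0.662 per Mb and 3.05%, and the dashed line marks the 1.8% of all autosomes together.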

How the data were processed

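The H3K27ac and input libraries came from sciatic nerve. Per the labels' protocols, nerves were pooled, fixed and sonicated. The submitters' processing notes list CASAVA 1.8.2, Bowtie and HOMER. How they were set, whether the input was used and which genome build applied is not given in the sources used here. The authors deposited 1 list of peak starts and ends without counts or scores, so read depth is unknown. Starts are printed with 1 added. On 13 of 20 autosomes peaks reached past all genes in a GRCr8 table, so genes and sequences were not analysed here.

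Gaps were measured edge to edge. Domains joined peaks no more than 12.5 kb apart. Shares have exact binomial intervals, counts exact Poisson intervals and medians order-statistic intervals, all at 95% and for counting error only. Scripts used Python 3.11.15 with pandas 2.3.3 and numpy 2.4.6, drawings matplotlib 3.10.9 and intervals scipy 1.17.1. The functions were tested on simulated data. Regions named were the 10 longest peaks, the 5 farthest from any peak, the 3 domains with most very long peaks (4 because of ties), the top and bottom 3 chromosomes of a measure and the peaks beside the length limit. Other regions were chosen after their values were seen. The members, classes and comparisons were chosen with earlier results of these data known. Other length limits, distances, reference classes and filters were tried.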

Additional observations from a re-analysis of the deposited data

How the results depend on the processing

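Of 57 alternative values, 21 stayed within the interval of the reported value (within 10% for covered length), 34 moved beyond it and 2 reversed; the cause was not tested except where a setting changes a value by construction. From centre to centre the share with a neighbour differed by -3.66 percentage points and the median distance by 2159 bp. Against 26.9 points, that share differed by 32.8 within 5 kb, 18.8 within 25 kb, 7.47 against peaks of 5 to 10 kb, 29.7 without peaks of 500 bp and 29.9 among peaks longer than the median. Within windows of 1 to 10, 21 to 30, and 31 or more peaks it differed by 29.7, 21.1 and 17.3 points (chosen after seeing the data, as was leaving out chromosome 10). Against -5148.5 bp, the median gap differed by -998.5 bp from peaks of 5 to 10 kb, by -6192.5 without peaks of 500 bp and by -8672 among peaks longer than the median. Against 786.5 bp, flanking lengths differed by 389.5 bp from peaks of 5 to 10 kb, 1175 within the stitching distance, 517 without very long neighbours, and 1296 and 1349 for minimums of 15 and 20 kb. For minimums of 7.5, about 13, 15 and 20 kb, by construction, the share of peaks was 3.55, 1.01, 0.590 and 0.264%, the covered share 18.9, 8.37, 5.82 and 3.37%, and that of chromosome 10, highest in all 7 chromosome settings, 4.86, 1.77, 1.24 and 0.577%. The 4 minimums gave 1142, 325, 190 and 85 peaks. The share of peaks was 2.17% without peaks of 500 bp, 3.605% of peaks longer than the median, and 2.46% (covered share 16.4%) after joining. Chromosome 10 reached 19.96% by covered length and 5.85% of peaks longer than the median. No paired analysis was possible because there is 1 ChIP library, which also leaves no leave-one-out value; without counts, what depth limits is unknown.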

Other observations

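The X chromosome was outside the definition. It held 3 peaks of 10 kb or more among its 791 peaks (0.379%, exact 95% interval 0.0783 to 1.1%). They were 12682 bp long (69592017 to 69604698), 21028 bp (107377424 to 107398451) and 37536 bp (116314764 to 116352299).

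The rows of the deposited list are not in genomic order, and very long peaks were concentrated in its early part. Their median row was 6681 of 32996, with quartiles at 3383 and 11672, against 16770 for the other autosomal peaks. Members of 20 kb or more had a median row of 3816. With the rows cut into 10 equal blocks, the first block held 141 members, the next 147 and the last 6, but none was among the first 100 rows. The peak of 47839 bp on chromosome 3 was in row 18574, the latest of the 10 longest, of which the other 9 were in rows 1252 to 8302. What the order of rows stands for is not given in the sources used here.

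Each chromosome was also cut into 10 equal parts between its outermost peaks, in file coordinates. The share of very long peaks was 2.26% in the first part (exact 95% interval 1.73 to 2.88%). It was 1.26% in the second (0.871 to 1.75%) and 1.98% in the last (1.58 to 2.43%). The other parts ran from 1.33 to 2.09%.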
